A study of Homo sapiens with 9 samples.

Results

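The cluster of miR-221 and miR-222 is a pair of miRNA genes, MIR221 and MIR222, and its 4 mature products were followed here through the small RNA libraries of 3 colorectal carcinoma lines. The rows of the count table named hsa-miR-221-3p, hsa-miR-221-5p, hsa-miR-222-3p and hsa-miR-222-5p were taken, that is, 4 of 1198 listed mature miRNAs. All 4 were kept by the filter on low counts, which kept 367 miRNAs. HCT116 is an established human colorectal carcinoma line. Its subline HCT-Oxa-c was derived by uninterrupted culture in rising concentrations of oxaliplatin, a platinum drug that crosslinks DNA. HCT-FU-c was derived in the same way in 5-fluorouracil, an inhibitor of thymidylate synthesis. Each line was sequenced in 3 biological replicates, so 9 libraries were compared. A subline is the outcome of a single selection, so resistance and the individual history of a subline cannot be told apart.

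The genes MIR221 and MIR222 are transcribed together, and their hairpins are cut by Drosha and Dicer into a 3p and a 5p arm, of which one is usually kept in Argonaute and the other degraded. Both 3p arms carry the same seed and so can pair with the same transcripts. Known targets include CDKN1B, which encodes the cyclin-dependent kinase inhibitor p27, CDKN1C, KIT and TIMP3, and the cluster is widely described as growth-promoting in epithelial tumours, colorectal carcinoma among them.

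The mature sequences below are shown because the shared seed ties the hairpins together. Capitals mark bases 2 to 8, the seed, and the sequences come from RefSeq on GRCh38.p14.
miR-221-3p: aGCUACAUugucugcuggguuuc
miR-222-3p: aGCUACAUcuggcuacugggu
miR-222-5p: cUCAGUAGccaguguagauccu
The first 8 bases of both 3p arms are identical and the first difference falls at position 9. Over the 21 positions that can be compared from the 5′ end, 11 are identical. The seed GCUACAU occurs in 2 of 2370 mature names in RefSeq, namely these 3p arms, and UCAGUAG, the seed of miR-222-5p, in 1. Reads of the 3p arms are told apart by the bases from position 9 on. Of the 4 names, 3 were matched in RefSeq and miR-221-5p is given by name.

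The hairpins are shown in full because the position of the arms is what the 3p to 5p ratios below refer to. Capitals mark the mature sequences listed above.
MIR221: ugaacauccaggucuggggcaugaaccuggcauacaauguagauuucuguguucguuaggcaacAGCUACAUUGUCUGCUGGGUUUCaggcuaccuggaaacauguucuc
MIR222: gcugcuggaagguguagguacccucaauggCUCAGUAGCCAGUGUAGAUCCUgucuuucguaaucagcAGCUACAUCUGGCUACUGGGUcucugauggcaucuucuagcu
MIR221 lies at chrX:45746157-45746266 and MIR222 at chrX:45747015-45747124, both on the minus strand and both 110 bases long, with 748 bases between them. In the GENCODE 29 annotation of GRCh38 both lie in an intron of the long noncoding RNA gene MIR222HG, between exon 1 (chrX:45769786-45770274) and exon 2 (chrX:45745211-45746100) of transcript MIR222HG-201. On the genome the mature miR-221-3p occupies chrX:45746180-45746202, miR-222-3p chrX:45747036-45747056 and miR-222-5p chrX:45747073-45747094.

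A textbook target shows what the shared seed recognises. In the 3′ untranslated region of CDKN1B (transcript ENST00000228872.8, plus strand, GRCh38) the complement of the seed, ATGTAGC, was found 2 times, starting at bases 201 and 274 after the stop codon. These are given as DNA with the match in capitals.
CDKN1B site 1, chr12:12721212-12721241: cctctaaaagcgttggATGTAGCattatgc
CDKN1B site 2, chr12:12721285-12721314: atagtttttaccttttATGTAGCacataaa
Among 8375 genes with a 3′ untranslated region of at least 1344 bases, 6.46% held the 7 letters at least 1 time in the first 1344 bases of the transcript strand and 0.287% at least 2 times. A match is a description of the letters, and no target was measured in these libraries.

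The libraries held 856383 to 2207538 counted reads, and replicate 3 was the shallowest of each line. Counts are given below as CPM, that is, counts corrected for library size, after TMM scaling, where the limit of 3 counts corresponds to 1.34 to 4.01 CPM and covers counting error only. The labelled epithelial origin was checked with 4 miRNAs of epithelial cells in the 9 libraries. The levels were 9116 to 11361 CPM for miR-200c-3p and 329 to 1101 CPM for miR-141-3p. The others were low, with 48.2 to 202 CPM for miR-194-5p and 34.5 to 70.2 CPM for miR-192-5p. The replicate 3 libraries stood apart from the others in all 3 lines: 188 of 367 miRNAs (51.2%) differed between replicate 3 and replicates 1 and 2 at an adjusted p below 0.05 in edgeR's quasi-likelihood test with line and replicate number in the model. In these libraries 5 miRNAs of blood cells, looked up after this was seen, summed to 289 to 580 CPM against 8.91 to 35.5 CPM in replicates 1 and 2. Of these, miR-451a of erythroid cells had 70 to 246 counts in replicate 3 and 0 to 2 counts in the other libraries, and miR-142-3p of leukocytes had at most 1 count in replicate 3. Of the 5, 4 were highest in replicate 3 in 3 of 3 lines. Of 2 miRNAs of muscle and stroma, miR-143-3p was highest in replicate 3 in 3 of 3 lines, with 312 to 561 CPM against 60.4 to 196 CPM, and miR-145-5p in 0 of 3, with 64.3 to 114 CPM against 96.7 to 168 CPM. The sum of the 4 epithelial miRNAs, most of it miR-200c-3p, was 9561 to 9862 CPM in replicate 3 against 10686 to 12643 CPM in the others. Of these, miR-141-3p had 329 to 379 CPM in replicate 3 against 645 to 1101 CPM. The levels, fold changes and ratios of the members are therefore given by replicate number or also for replicates 1 and 2 alone.

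Of the 4 products, miR-222-3p was the most abundant, followed by miR-221-3p, miR-221-5p and miR-222-5p, and this order held in 9 of 9 libraries. Together they took 2.48% of all counts in HCT-Oxa-c replicate 2 and 4.60% in HCT-FU-c replicate 3, the lowest and the highest library. The 3p arms made up 94.8% to 98.4% of the cluster's counts. Ranked within each library, miR-222-3p was between 3rd and 9th and miR-221-3p between 11th and 19th of all miRNAs.

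For miR-222-3p, the level in HCT116 was 20337, 18341 and 33593 CPM in replicates 1, 2 and 3. In HCT-Oxa-c these libraries held 15326, 14207 and 24738 CPM, and those of HCT-FU-c 18371, 22141 and 35397 CPM. The third replicate was the highest of each line, and the ranges of the lines overlapped. The means were 24091 ± 8290, 18090 ± 5784 and 25303 ± 8942 CPM (SD, n = 3 each). Over all libraries miR-222-3p was the 6th most abundant tested miRNA with 22494 ± 7531 CPM (SD, n = 9), next to let-7a-5p at 27638 ± 9136 and miR-10a-5p at 21237 ± 17572 CPM, and these neighbours differed by less than their spread.

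The partner arm of the other hairpin, miR-221-3p, was the steadiest member. It had 10701, 11576 and 9867 CPM in HCT116, 11237, 9278 and 9179 CPM in HCT-Oxa-c and 12007, 10899 and 12957 CPM in HCT-FU-c. No replicate number was highest throughout, and the 3 lines overlapped. The means were 10715 ± 855, 9898 ± 1161 and 11955 ± 1030 CPM (SD, n = 3 each). From the lowest to the highest library the level spanned 1.41-fold, against 2.49-fold for miR-222-3p, 4.42-fold for miR-221-5p and 6.0-fold for miR-222-5p. It ranked 11th, between let-7g-5p at 13329 ± 2019 and miR-182-5p at 10570 ± 7867 CPM (SD, n = 9), and was not apart from the latter beyond its spread.

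The less abundant arm of the same hairpin, miR-221-5p, was present at 793, 855 and 2361 CPM in HCT116. In HCT-Oxa-c it had 1040, 943 and 1616 CPM, and the libraries of HCT-FU-c held 867, 534 and 2054 CPM. In every line the replicate 3 library was the highest, and the lines overlapped, with means of 1336 ± 888, 1200 ± 364 and 1152 ± 799 CPM (SD, n = 3 each). Its neighbours in level, miR-21-3p at 1233 ± 398 and miR-378a-3p at 1124 ± 185 CPM, differed from its 1229 ± 630 CPM (SD, n = 9) by less than the spread.

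The remaining arm, miR-222-5p, was counted 8, 5 and 8 times in HCT116, 8, 13 and 11 times in HCT-Oxa-c and 10, 7 and 18 times in HCT-FU-c. This corresponded to means of 6.56 ± 3.69, 7.10 ± 3.72 and 10.9 ± 9.34 CPM (SD, n = 3 each). All libraries were above the limit of 3 counts, but at this depth a difference between lines had to be large to be seen.

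**Figure D1:**
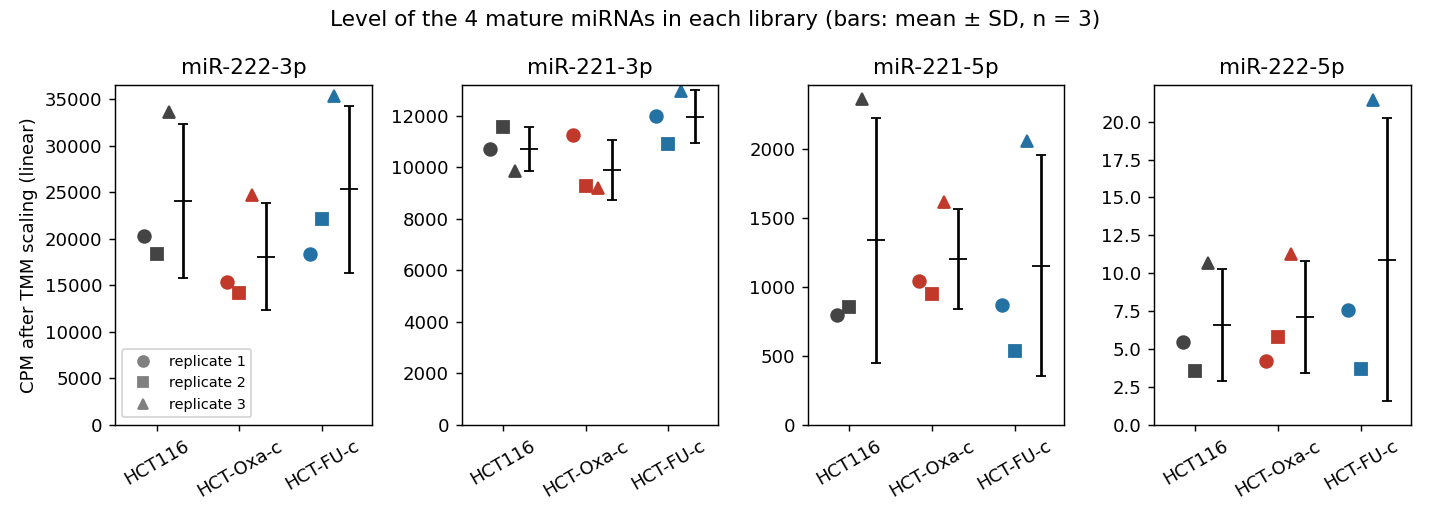
Level of each mature miRNA in CPM after TMM scaling (linear axes that start at 0) for each of 9 libraries, by line, with the shape of a point giving the replicate number and the bar the mean ± SD of 3 libraries. The triangles of replicate 3 are the highest of each line for miR-222-3p, miR-221-5p and miR-222-5p, while miR-221-3p stays between 9179 and 12957 CPM.

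To see whether resistance to either drug went with a change of the cluster, each subline was compared with HCT116. None of the 4 members passed the test in HCT-Oxa-c against its parental line, where 9 of 367 miRNAs (2.45%) did at an adjusted p below 0.05 in edgeR's quasi-likelihood test. The most negative log2 fold change among the abundant members was that of miR-222-3p, at -0.41 (SE 0.35, 95% interval -1.20 to 0.38, adjusted p = 0.875 in edgeR). The level of miR-222-3p was lower in HCT-Oxa-c in 3 of 3 pairs of libraries with the same replicate number, by log2 differences of -0.41, -0.37 and -0.44. The share of all miRNAs that agree in 3 of 3 pairs was not counted. Such agreement is therefore given here and below as a description. Without HCT116 replicate 3 the difference was -0.12 and without HCT-Oxa-c replicate 3 it was -0.64, the range over single libraries left out. These fits hold no replicate term and keep replicate 3, where miR-222-3p was 0.78 higher on the log2 scale, in only 1 of the lines compared. The range therefore includes that shift. With the replicate number as a block the interval narrowed to -0.72 to -0.10 and the adjusted p in edgeR was 0.0738, again above the threshold, in a model that called 54 of 367 miRNAs (14.7%). The log2 fold change of miR-221-3p was -0.11 (95% interval -0.54 to 0.31), that of miR-221-5p -0.16 (-1.44 to 1.13) and that of miR-222-5p 0.12 (-1.63 to 1.87). These intervals leave room for changes over 2-fold, that is 1 on the log2 scale, in the 5p arms and, for a decrease, in miR-222-3p, but not in miR-221-3p. In replicates 1 and 2 alone miR-222-3p differed by -0.37 (adjusted p = 0.212 in edgeR), miR-221-3p by -0.10 and miR-221-5p by 0.28, while miR-222-5p fell below the filter. In bulk libraries a lower level per cell and fewer expressing cells cannot be told apart.

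In the 5-fluorouracil subline again no member was called, and 0 of 367 miRNAs (0%) were called at all by edgeR, while 15 (4.09%) had an unadjusted p below 0.05 and DESeq2 called 4. With the replicate block 20 miRNAs (5.45%) were called, none of them a member. The log2 fold changes were 0.07 for miR-222-3p (95% interval -0.72 to 0.86), 0.16 for miR-221-3p (-0.27 to 0.58), -0.21 for miR-221-5p (-1.50 to 1.07) and 0.72 for miR-222-5p (-1.03 to 2.46), each with an adjusted p of 0.997 in edgeR. Only for miR-222-5p was the subline library the higher one in 3 of 3 same-numbered pairs, and that rests on 5 to 18 counts per library. With the libraries of HCT-Oxa-c and HCT116 alone this miRNA fell below the filter. The filter thus favoured a high value in HCT-FU-c, so the 0.72 and the 3 of 3 pairs decide nothing. In replicates 1 and 2 alone the log2 fold changes of miR-222-3p, miR-221-3p and miR-221-5p were 0.02, -0.01 and -0.29, none of them called.

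Between the sublines, miR-222-3p gave the one result that turned on how the replicates were treated. Its level in HCT-Oxa-c minus that in HCT-FU-c was -0.48 on the log2 scale (SE 0.35, 95% interval -1.28 to 0.31, adjusted p = 0.597 in edgeR), where 16 of 367 miRNAs (4.36%) were called. With the replicate number as a block the difference was -0.48 (SE 0.15, -0.79 to -0.16) with an adjusted p of 0.0233 in edgeR, and HCT-Oxa-c was the lower library in 3 of 3 pairs, by -0.26, -0.64 and -0.52. In that model 97 of 367 miRNAs (26.4%) were called and 43 (11.7%) were lower, so a call was frequent there. The blocked call was lost with RLE size factors (adjusted p = 0.0656 in edgeR), with TMM factors that left out the top miRNA (adjusted p = 0.0777 in edgeR) and in 6 of 9 models that left out a library, those without HCT116 replicate 2, any HCT-Oxa-c library, or HCT-FU-c replicate 2 or 3, in which the adjusted p reached 0.216. Without HCT-FU-c replicate 3 and without the block the difference was -0.08, in a fit that keeps the higher replicate 3 in HCT-Oxa-c but not in HCT-FU-c. In replicates 1 and 2 alone it was -0.39 with an adjusted p of 0.122 in edgeR.

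The other members were not called between the sublines with or without the block. The log2 fold change was -0.27 for miR-221-3p (95% interval -0.70 to 0.15), 0.06 for miR-221-5p (-1.22 to 1.34) and -0.59 for miR-222-5p (-2.29 to 1.1). For miR-221-3p too HCT-Oxa-c was the lower library in 3 of 3 pairs, by -0.10, -0.23 and -0.50. With the block its interval was -0.59 to 0.035. HCT-Oxa-c was lower in 1 of 3 pairs for miR-221-5p and in 2 of 3 for miR-222-5p. In replicates 1 and 2 alone the log2 fold change of miR-221-5p was 0.57 with an adjusted p of 0.0788 in edgeR, not called. No member had libraries of 2 lines that did not overlap in any of the 3 comparisons, whereas this held for 16.1% of tested miRNAs for the oxaliplatin subline and HCT116, 8.72% for the 5-fluorouracil subline and HCT116 and 22.9% between the sublines. The comparisons share libraries, so their values are not independent of each other.

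**Figure D2:**
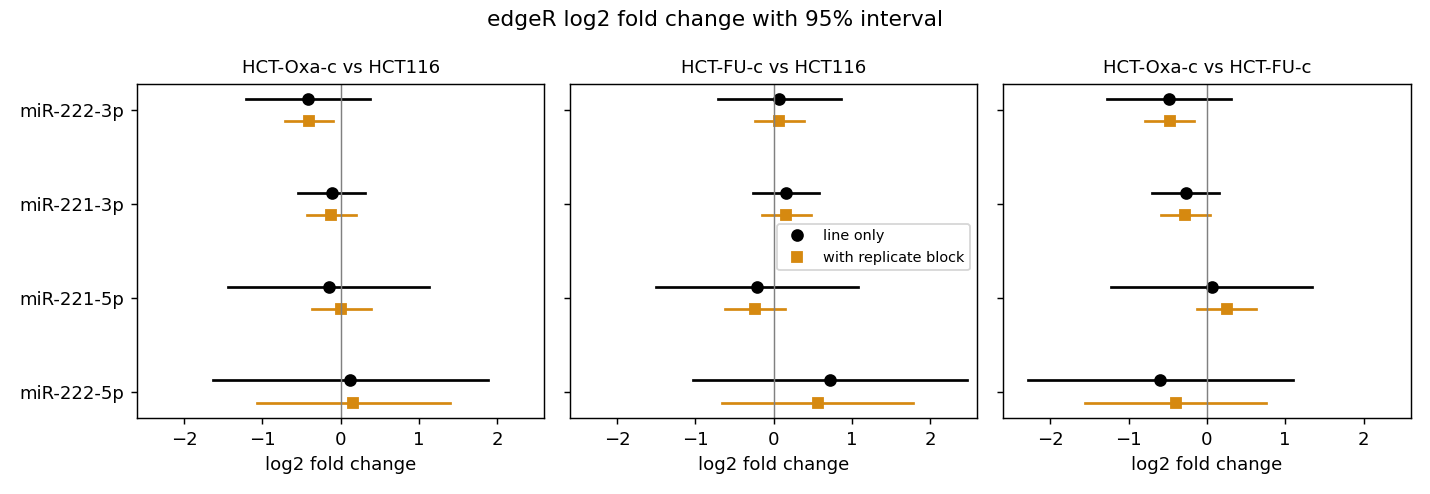
Log2 fold change (horizontal axis) of each member in the 3 comparisons, with lines for 95% intervals, from edgeR with line alone (black circles) and with the replicate number as a block (orange squares). All black intervals include 0, and of the orange intervals only those of miR-222-3p in the comparisons with HCT-Oxa-c lie wholly below 0, at -0.72 to -0.10 and -0.79 to -0.16.

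Arm ratios need no scaling between libraries, since both counts come from the same library. For the hairpin of miR-221 the 3p to 5p count ratio was 13.5, 13.5 and 4.18 in HCT116, 10.8, 9.84 and 5.68 in HCT-Oxa-c and 13.9, 20.4 and 6.31 in HCT-FU-c. The ratio of replicate 3 was the lowest of each line, at 4.18 to 6.31 against 9.84 to 20.4 in the rest, and exact 95% intervals for counting error alone were far narrower than this gap (3.97 to 4.40 in HCT116 replicate 3 and 12.7 to 14.3 in HCT116 replicate 1). On the log2 scale the line means were 3.19 ± 0.98, 3.08 ± 0.50 and 3.60 ± 0.86 (SD, n = 3 each). The lines did not differ beyond this spread, with two-sided exact permutation p = 0.8 and 0.5 for the oxaliplatin and the 5-fluorouracil subline against HCT116 and 0.4 between the sublines, where 3 against 3 libraries cannot go below 0.1. That spread includes the shift of replicate 3. For HCT-Oxa-c against HCT116 the same-numbered log2 differences had both signs, at -0.32, -0.46 and 0.44. In replicates 1 and 2 alone the log2 ratio differed by -0.39 in HCT-Oxa-c and by 0.31 in HCT-FU-c against HCT116. Between the sublines it differed by -0.71 there, and these values were not tested. Between same-numbered libraries the log2 ratio was higher in HCT-FU-c than in HCT116 in 3 of 3 pairs, by 0.04, 0.59 and 0.59, and lower in HCT-Oxa-c than in the 5-fluorouracil subline in 3 of 3, by -0.36, -1.05 and -0.15. An exact sign-flip permutation test of 3 pairs cannot go below p = 0.25.

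For the hairpin of miR-222 the 3p arm outnumbered the 5p arm by 1651 to 6022 times. The ratios were 3746, 5137 and 3144 in HCT116, 3655, 2445 and 2192 in HCT-Oxa-c and 2432, 6022 and 1651 in HCT-FU-c. Replicate 3 was lowest in each line, but with 5 to 18 counts of the 5p arm the counting intervals were wide, as in HCT-FU-c replicate 3 with 1045 to 2786 and HCT-FU-c replicate 2 with 2922 to 14978. The log2 means were 11.83 ± 0.33, 11.33 ± 0.37 and 11.43 ± 0.93 (SD, n = 3 each), and the exact permutation p between lines was 0.2 to 0.9. Among the 83 hairpin names with both arms tested, that of miR-222 had the 2nd most unequal arms, with a mean log2 ratio of 11.53. The hairpin of miR-221 ranked 47th with 3.29 beside a median of 3.57 in size. Hairpins whose rarer arm fell below the filter on low counts are not among the 83. The rank therefore holds within this filtered set only.

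Across the hairpins, miR-222-3p exceeded miR-221-3p in every library. The count ratio was 1.90, 1.58 and 3.40 in HCT116, 1.36, 1.53 and 2.70 in HCT-Oxa-c and 1.53, 2.03 and 2.73 in HCT-FU-c. Replicate 3 was the highest of each line and its 3 values did not overlap the others. The lines did, with exact permutation p = 0.5 and 0.9 for the oxaliplatin and the 5-fluorouracil subline against HCT116 and 0.6 between the sublines. In same-numbered pairs the log2 ratio was lower in HCT-Oxa-c in 3 of 3 against HCT116, by -0.48, -0.05 and -0.34, and in 3 of 3 against HCT-FU-c, by -0.17, -0.41 and -0.02, where again 3 pairs cannot pass the threshold. Reads of miRNAs that ligate with unequal efficiency are not equal to molecules, so a ratio of counts compares libraries and not the true amounts of the hairpins.

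For the 5p arms the ratio of miR-222-5p to miR-221-5p ran from 0.00403 to 0.0104. All 3 HCT-FU-c libraries, at 0.00872, 0.00688 and 0.0104, lay above those of HCT116, at 0.00685, 0.00417 and 0.00452, with a log2 difference of 0.72 and an exact permutation p of 0.1, the smallest possible here. Adjusted over the 12 ratio tests it was 0.6. The HCT-Oxa-c libraries had 0.00403, 0.00616 and 0.00698. Their log2 difference from HCT-FU-c was -0.62, also with an exact permutation p of 0.1 and 0.6 after adjustment. On raw counts 0.00698 in HCT-Oxa-c replicate 3 exceeded 0.00688 in HCT-FU-c replicate 2, so the sublines overlapped. With no pseudocount added to the counts the exact permutation p between the sublines was 0.2. The nearest libraries of HCT116 and HCT-FU-c, 0.00685 from 8 counts and 0.00688 from 7 counts of miR-222-5p, were not separable within counting error. The share of other ratios whose libraries separate the lines in this way was not counted, so the separation from HCT116 is a description.

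**Figure D3:**
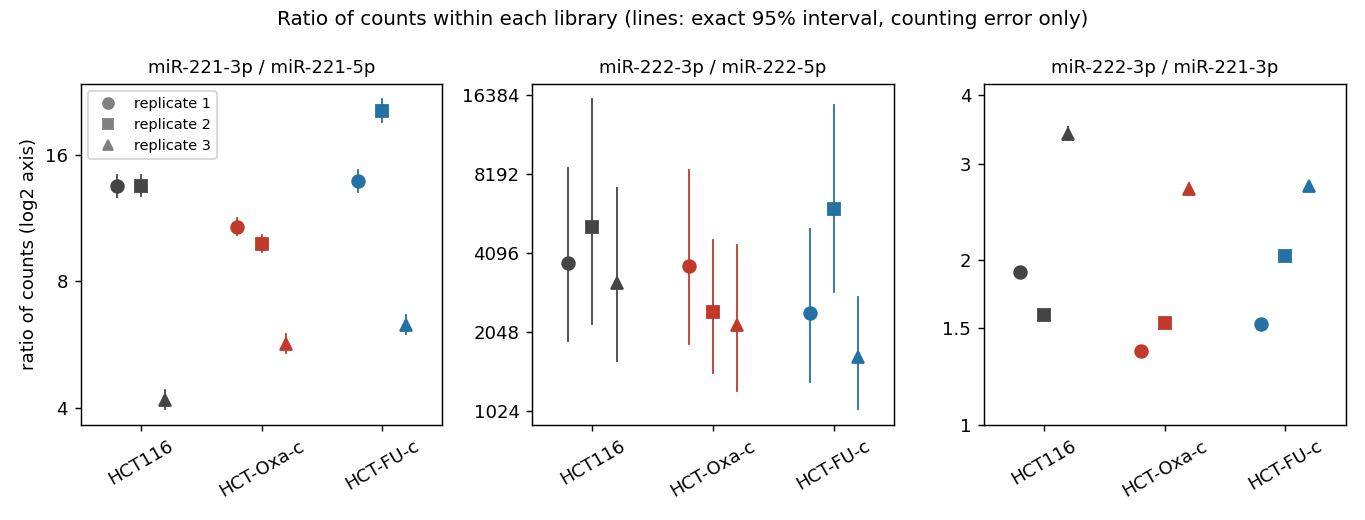
Ratio of counts within each library (log2 axes), with vertical lines for exact 95% intervals that cover counting error only, for 3p over 5p of each hairpin and for miR-222-3p over miR-221-3p. Replicate 3 (triangles) gives the lowest miR-221 arm ratios, 4.18 to 6.31, and the highest ratios between the hairpins, 2.70 to 3.40.

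The co-change of the hairpins was examined over replicates 1 and 2 of the 3 lines, because replicate 3 forms a separate cluster. The log2 levels of miR-221-3p and miR-222-3p gave Pearson's r = 0.454 (exact permutation p = 0.397) and Spearman's rho = 0.143 (exact permutation p = 0.803) over 6 libraries. Without the 2 libraries farthest from the median of miR-221-3p, r was -0.573, so the sign rests on those libraries. With total counts in place of TMM, r was 0.848 (exact permutation p = 0.0361), and 0.381 without the 2 farthest libraries. With RLE size factors r was 0.277 (exact permutation p = 0.583), and 0.0086 without those libraries. Libraries of the same number are not independent of each other, which these permutations ignore. The relation of the hairpins thus depended on the scaling and, under TMM, on 2 libraries.

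Of the 4 members, 3 were higher in replicate 3 than in replicates 1 and 2. In the model with line and replicate number, miR-221-5p was higher in replicate 3 by 1.28 on the log2 scale (SE 0.15, 2.43-fold, adjusted p = 2.84e-07 in edgeR). For miR-222-3p the difference was 0.78 (SE 0.13, 1.72-fold, adjusted p = 2.00e-05 in edgeR) and for miR-222-5p it was 1.48 (SE 0.49, 2.80-fold, adjusted p = 0.0141 in edgeR). Each of these 3 was highest in replicate 3 in 3 of 3 lines, as were 31.3% of all miRNAs tested. The fourth, miR-221-3p, was not called, with -0.05 (SE 0.13, 95% interval -0.32 to 0.22, adjusted p = 0.782 in edgeR), and replicate 3 was the highest library in 1 of 3 lines. Such differences were common, as 109 miRNAs (29.7%) were called higher and 79 (21.5%) lower in this contrast. With total counts the split was 78 higher of 184 called, and that scaling moved the median of all miRNAs by -0.24, while the 3 members remained called higher. In replicates 1 and 2 alone miR-222-5p fell below the filter, so the filter favoured a high value in replicate 3. The p of miR-222-5p in this contrast therefore decides nothing. The contrast was also set after replicate 3 had been seen to stand apart in these data.

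Shifts between the arms of a hairpin were also common in this contrast. The log2 arm ratio of miR-221 was lower in replicate 3 by -1.32 and that of miR-222 by -0.69, beside a median shift of 0.978 in size over 83 hairpins. Of these hairpins 29 (34.9%) shifted towards the 5p arm in all 3 lines and 24 (28.9%) towards the 3p arm, and 30 shifted further in size than miR-221. The blood-cell miRNAs, miR-143-3p and the lower depth that moved with replicate 3 are given above, and their part in the members' differences was not tested.

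**Figure D4:**
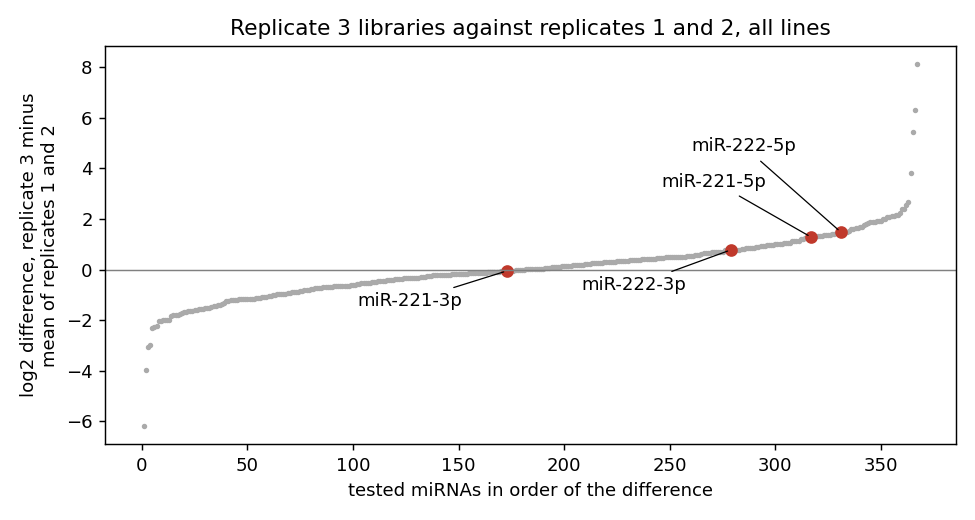
Log2 difference of replicate 3 from the mean of replicates 1 and 2 (vertical axis) for 367 tested miRNAs in order of that difference, with the 4 members in red. The members miR-222-3p, miR-221-5p and miR-222-5p lie at 0.78, 1.28 and 1.48, while miR-221-3p lies at -0.05, near the middle of the order.

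The levels most like each member were listed as a description over the 9 libraries, among 162 miRNAs with a mean of at least 100 counts. For miR-221-3p these were miR-362-5p (r = 0.696), miR-135b-5p (0.690) and miR-660-5p (0.689), and its cluster partner miR-222-3p came 62nd with 0.170. For miR-222-3p the closest were miR-18a-5p (0.949), miR-132-3p (0.927) and miR-140-3p (0.923). For miR-221-5p they were miR-584-5p (0.966), miR-454-3p (0.959) and miR-423-3p (0.953), and the other arm of its own hairpin, miR-221-3p, came 95th with -0.09. These coefficients share the replicate 3 libraries, in which miR-222-3p and miR-221-5p were high, and the total count of each library.

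Other miRNAs of the X chromosome that are encoded in clusters were counted beside the members. Of 35 that were listed, 20 were tested, and none was called in either subline against HCT116, with median log2 fold changes of -0.03 for HCT-Oxa-c and 0.17 for HCT-FU-c beside -0.01 and 0.02 over all miRNAs. Between the sublines 1 of the 20 was called, where 4.36% of all miRNAs were. It was miR-224-5p, which is encoded beside miR-452, higher in HCT-Oxa-c by 1.36 (adjusted p = 0.0201 in edgeR). The member farthest from 0 was miR-362-3p in HCT-Oxa-c, at -0.71 (adjusted p = 0.933 in edgeR), and let-7f-2-3p in HCT-FU-c, at 1.22 (adjusted p = 0.968 in edgeR). With the replicate block miR-224-5p was called lower in HCT-FU-c than in HCT116, by -1.15 (adjusted p = 0.000809 in edgeR), in a model that called 5.45% of all miRNAs. Between the sublines the block called miR-224-5p higher in HCT-Oxa-c (1.36, adjusted p = 1.59e-05 in edgeR) and let-7f-2-3p (-1.87) and miR-362-5p (-0.88) lower, 3 of the 20 where 26.4% of all miRNAs were called. In replicate 3 against replicates 1 and 2, 2 of the 20 were called higher and 5 lower, where 29.7% of all miRNAs were higher and 21.5% lower.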

How the data were processed

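For each line, 3 small RNA libraries (NEXTflex kit, Illumina MiSeq) were compared. The authors deposited the raw counts of reads on each mature miRNA, together with a normalized signal (counts divided by a library factor) that was not used. The submitters' processing notes name CASAVA 1.8, Bowtie 1.1.2, DESeq2 and GRCh38.p7 without their roles. Columns were matched to samples by name. Counts were tested with edgeR 4.0.16 (R 4.3.3) by the quasi-likelihood test on all 9 libraries with line as factor, TMM scaling, filterByExpr (minimum count 10, minimum total 15) and Benjamini-Hochberg adjustment over 367 miRNAs. The prior count of fold changes was 0.125. Arm ratios used log2 counts with 0.5 added and exact permutation tests. Scripts were tested on simulated data.

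Deviations of same-numbered libraries from their line means correlated at 0.351 to 0.722, and those of libraries with different numbers at -0.650 to 0.595. The numbers in the labels were taken to pair the libraries, although these ranges overlap. Pairs of number 1, at 0.351 to 0.456, lay within the range of different numbers, so the pairing was assumed and not established. The labels name no batch, and counts of replicates differed beyond sampling noise. Alternatives were scaling, filter, DESeq2 1.42.0, libraries compared, replicate block, pseudocount and each library left out. Every member is described. From the list of X-linked miRNAs those called or farthest from 0 were named, and another list is not reported here. The members and lists were chosen with earlier results of these data known. Sequences are from RefSeq, and gene structures from GENCODE 29.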

Additional observations from a re-analysis of the deposited data

How the results depend on the processing

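Of 200 recomputed log2 fold changes of the members, 1 had an adjusted p below 0.05, that of miR-222-3p between the sublines with the replicate block (-0.48), and 17 had the opposite direction. Directions of members that were not called are given above as values only, and none is claimed as a difference between lines. The block changed no other call of a member. Block settings added after the data were seen gave -0.65 with total counts and -0.40 with DESeq2 for miR-222-3p between the sublines, both called, -0.40 with RLE size factors and -0.40 with TMM without the most abundant miRNA, neither called, and -0.53 to -0.33 with each library left out. Of those, the models without HCT116 replicate 1 (-0.43), HCT116 replicate 3 (-0.50) or HCT-FU-c replicate 1 (-0.53) were called.

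Opposite directions outside the left-out libraries were miR-221-5p in HCT-Oxa-c against HCT116 with the replicate block (0.0085) and in replicates 1 and 2 only (0.28), miR-221-5p between the sublines with total counts (-0.029), and in replicates 1 and 2 only miR-221-3p in HCT-FU-c against HCT116 (-0.012), the log2 ratio of miR-222-3p to miR-221-3p in HCT-FU-c against HCT116 (0.023) and that of miR-222-5p to miR-221-5p in HCT-Oxa-c against HCT116 (-0.14). The cause was not tested.

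With the oxaliplatin subline and then the 5-fluorouracil subline against HCT116, and last the sublines against each other, 9, 0 and 16 miRNAs were called. Without a filter the number rose to 16 in the first and 1 in the second. It was 4, 1 and 9 with at least 10 counts in every library, 23, 4 and 43 with DESeq2, 54, 20 and 97 with the replicate block and 43, 13 and 67 in replicates 1 and 2 only. Leaving out single libraries gave 4 to 12, 0 to 0 and 6 to 23.

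For HCT-Oxa-c over HCT116 the log2 values with each library left out were ratio miR-221-3p to miR-221-5p -0.68 to 0.17, ratio miR-222-3p to miR-221-3p -0.59 to 0.036, ratio miR-222-5p to miR-221-5p -0.054 to 0.33, miR-221-3p -0.19 to 0.00046, miR-221-5p -0.40 to 0.52 and miR-222-5p -0.24 to 0.56. In the same setting miR-222-3p kept its direction at -0.64 to -0.12. None of these fits and ratios with a library left out holds a replicate term, so leaving out a replicate 3 library unbalances the lines. For HCT-FU-c over HCT116 the log2 values with each library left out were ratio miR-221-3p to miR-221-5p -0.16 to 0.88, ratio miR-222-3p to miR-221-3p -0.32 to 0.23, miR-221-5p -0.96 to 0.48, miR-222-3p -0.28 to 0.39 and miR-222-5p -0.22 to 1.18. For HCT-Oxa-c over HCT-FU-c the log2 values with each library left out were ratio miR-222-3p to miR-221-3p -0.50 to 0.013, ratio miR-222-3p to miR-222-5p -0.49 to 0.41, miR-221-5p -0.31 to 0.87 and miR-222-5p -1.06 to 0.40. The pooled r of the 3p arms over 6 libraries was 0.848 with total counts and 0.277 with RLE size factors against 0.454 with TMM. Depth limits miR-222-5p, with 5 to 18 counts per library.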
